A study of Mus musculus with 10 samples.

Results

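Amacrine cells that carried RNA for growth hormone-releasing hormone (Ghrh) were a rare set in the mouse retina. Of 32523 cells, 104 held at least 2 unique molecular identifiers (UMIs, each standing for 1 captured RNA molecule) of Ghrh, and they are called Ghrh cells or members here. All 10 libraries held them, with 5 to 17 cells in each. The cells came from retinas of Chx10-cre-GFP mice at postnatal day 19, so every library shared that transgene. Per the labels' protocols, live cells (positive for Calcein Blue) were sorted that were negative for GFP and for staining with CD133-APC and CD73-PE, and were profiled with the 10x Genomics 3′ assay. By their labels the libraries fall into batches 1, 2 and 3, which hold 1, 5 and 4 libraries. Separate animals are not named for the libraries, so each p-value reflects the spread of these libraries alone, and that spread may be technical. The cells were chosen by their Ghrh UMIs and Nnat, Necab2 and Rxrg were given with them as markers, so the levels of these 4 genes are a description without a test. The comparison set was 16210 GABAergic cells of the same libraries, with at least 2 UMIs of Gad1 plus Gad2 and none of Slc6a9 or Ghrh.

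Amacrine cells are interneurons of the inner retina. Most release GABA, made by the enzymes of Gad1 and Gad2, or glycine, and Slc6a9 encodes the glycine transporter of the glycinergic ones. Many types also carry a neuropeptide. Ghrh encodes a peptide of the secretin family that is best known from hypothalamic neurons, where it drives the release of growth hormone from the pituitary. Nnat encodes neuronatin, a small membrane protein from an imprinted gene, Necab2 a neuronal calcium-binding protein and Rxrg a retinoid X receptor.

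Ghrh lies on chromosome 2 at 157329497 to 157347506 on the minus strand (GENCODE M21, GRCm38, the assembly that mm10 names), and Nnat on the same chromosome at 157560078 to 157562522 on the plus strand, 213 kb from the start of Ghrh. The 250 bases before their starts (RefSeq, GRCm38.p6) are shown because these neighbouring genes were both high in the cells. They are written 5′ to 3′ on the strand of the gene, with matches on either strand in capitals; the motifs searched were TATAAA (the TATA motif), TAATTA (a homeodomain motif), AGGTCA (a nuclear receptor motif) and TGACGTCA (the cyclic AMP response motif).
Ghrh start 1, chr2:157346656-157346905, minus strand: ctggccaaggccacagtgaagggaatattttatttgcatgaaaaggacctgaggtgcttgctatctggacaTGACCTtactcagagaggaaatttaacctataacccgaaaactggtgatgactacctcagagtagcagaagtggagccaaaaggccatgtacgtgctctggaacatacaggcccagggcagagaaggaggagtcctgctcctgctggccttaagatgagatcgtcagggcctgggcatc
Ghrh start 2, chr2:157337427-157337676, minus strand: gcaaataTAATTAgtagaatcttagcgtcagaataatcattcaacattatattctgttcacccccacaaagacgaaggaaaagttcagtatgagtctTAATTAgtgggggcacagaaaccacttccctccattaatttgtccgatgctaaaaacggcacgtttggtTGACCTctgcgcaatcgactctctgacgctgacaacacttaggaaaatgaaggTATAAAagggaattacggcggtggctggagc
Nnat start 1, chr2:157559828-157560077, plus strand: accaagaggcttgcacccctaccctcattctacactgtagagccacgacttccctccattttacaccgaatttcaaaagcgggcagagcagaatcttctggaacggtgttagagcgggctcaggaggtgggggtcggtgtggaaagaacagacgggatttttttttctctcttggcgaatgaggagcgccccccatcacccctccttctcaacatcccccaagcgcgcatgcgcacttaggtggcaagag
The second Ghrh window held 1 match to TATAAA, 31 bases before the start, 2 matches to TAATTA and 1 to AGGTCA. The first held 1 match to AGGTCA and the Nnat window held none. Of 32851 promoter windows of this length, 12.4% held TATAAA, 4.84% TAATTA, 14.0% AGGTCA and 1.55% TGACGTCA. The 3′ assay does not tell which Ghrh start was used.

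Ghrh RNA was concentrated in few cells. In all, 310 cells held 1425 Ghrh UMIs, and members held 1219 of them (85.5%). The median member had 7 Ghrh UMIs, 65 had at least 5, and the largest count was 87. Members made up 0.203% to 0.526% of the cells of a library, with a median of 0.324% and a mean of 0.334% ± 0.103 (SD, n = 10). Over the 5 libraries of batch 2 the mean was 0.345% and over the 4 of batch 3 it was 0.273%, and a two-sided exact permutation test gave p = 0.19. Ghrh ranged from 804 to 2140.0 CPM (counts scaled to a common total of UMIs per library) in the members of a library, with a median of 1268.

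Free RNA can place UMIs in cells that do not make a transcript, so Ghrh was also counted in cells expected to lack it. Of 4556 cells with at least 2 UMIs of Slc6a9 and none of Gad1 or Gad2 (median 3664 UMIs), 7 held a Ghrh UMI (0.154%, exact 95% interval 0.0618 to 0.316). None of them held 2 (0 cells, exact 95% interval 0 to 0.0809%). Of 16415 cells with at least 2 UMIs of Gad1 plus Gad2 and no Slc6a9 (median 5411 UMIs), 1.25% held a Ghrh UMI and 0.469% at least 2. These intervals and limits cover counting error only.

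Detection of the markers rose with the Ghrh count. Just outside the threshold, the 206 cells with 1 Ghrh UMI had Nnat in 58.7%, Necab2 in 15.5% and Rxrg in 13.1%. Just inside it, the 20 cells with 2 Ghrh UMIs had them in 90%, 50% and 45%. All 18 cells with 20 or more Ghrh UMIs had all 3 genes. In comparison cells the shares were 25.2%, 7.85% and 6.32%. All 3 were found together in 77 of 104 members and in 60 of 16210 comparison cells. After cells were thinned to 2000 UMIs, which left out 7 members and 2088 comparison cells, Nnat was found in 95.9% of members and 14.6% of comparison cells, Necab2 in 61.9% and 3.52%, and Rxrg in 40.2% and 2.65%.

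**Figure D1:**
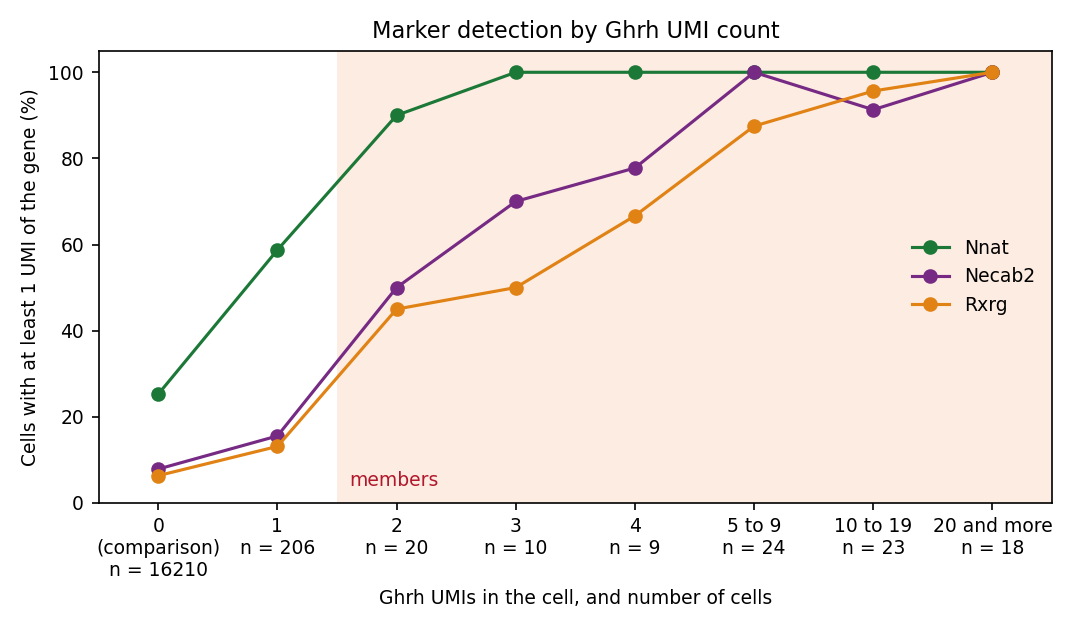
Share of cells (vertical axis, percent) with at least 1 UMI of Nnat, Necab2 or Rxrg, by the number of Ghrh UMIs in the cell (horizontal axis). Detection of Necab2 goes from 15.5% at 1 Ghrh UMI to 50% at 2 and 100% at 20 and more.

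Members were deeper than the cells they were compared with. Their median depth was 8012 UMIs against 5394, and it was higher in 9 of 10 libraries. Of the members, 46.2% lay above 2 times the median of their library, against 19.5% of comparison cells. Doublets were not called, and their part in the results was not tested. The members of a library summed to 43407 to 154130 UMIs and its comparison cells to 3679161 to 14532227, so levels in members carry the larger counting error. Libraries 5 and 6 shared 312 cell barcodes and libraries 2 and 3 shared 59, while the other pairs shared at most 32. Of the members, 6 had a barcode found in another library; without all such cells 372 genes were higher and 830 lower in the comparison described next.

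By their transmitter genes most members were GABAergic. In 77 of 104 members (74.0%) Gad1 plus Gad2 reached 2 UMIs with no Slc6a9 UMI. Another 19 (18.3%) also had Slc6a9, at a median depth of 12446 UMIs. A further 7 had neither, at a median of 1721 UMIs, and 1 had Slc6a9 without 2 Gad UMIs. Gad1 stood at 1079.7 ± 292 CPM (SD, n = 10) in members and 1230.4 ± 201 in comparison cells, which were chosen for it, and Gad2 at 222 ± 70.6 and 305 ± 16.9. The general amacrine gene Pax6 stood at 1016 ± 242 and 994 ± 32.1 CPM, and Slc32a1, the vesicular transporter of GABA and glycine, at 641 ± 116 and 665 ± 53.8. Of 10 tested general amacrine genes, described below, 5 were lower in members and 1 was higher.

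Counts summed per library were compared between members and GABAergic cells with edgeR's quasi-likelihood test, with library as a block and Benjamini-Hochberg adjustment. Of 10137 genes, 372 were higher in the Ghrh cells (3.67%) and 808 lower (7.97%) at an adjusted p below 0.05, and the median log2 change was -0.10. Every library of members lay above every library of comparison cells for 122 genes (1.2%). The given markers are among these counts. The balance differed between fits. Calls that were higher made up 31.5% here, 40.7% with DESeq2's size factors, 44.5% with DESeq2's test, 17.7% without cells above 2 times the median depth (42 members, 6 libraries) and 9.32% with cells thinned to 2000 UMIs (29 members, 4 libraries), where the median of all genes was -0.72. Of the 98 genes named from this comparison, 27 kept their direction but missed the threshold in batch 3 alone (29 members, 4 libraries), and 3 changed direction. With cells thinned 85 of them had a value: 41 were unchanged in direction and call, 36 missed the threshold and 8 changed direction. Among those with a value without deep cells, 68 were unchanged, 23 missed the threshold and 2 changed direction. All changes below are from the first of these fits, and a value in brackets after a gene is its log2 change unless a unit is given. Counts are of 3′ ends, not per length, so levels are compared only within a gene.

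The largest increases were in genes of a growth factor, membrane proteins and signalling proteins. Bmp2, a secreted factor of the BMP family, ran from 46.1 to 144 with a median of 104 CPM over the libraries of members and from 1.09 to 3.65 with a median of 2.14 over those of comparison cells, a log2 change of 5.57 ± 0.25 (SE, adjusted p = 4.8e-69). Bdnf, the brain-derived neurotrophic factor, stood at 72.3 to 276 CPM against 8.13 to 12.7 (log2 change 3.54 ± 0.22, adjusted p = 3.05e-42). Sdc2, the proteoglycan syndecan-2, stood at 275 to 530.1 CPM against 26.8 to 37.9 (log2 change 3.50 ± 0.13, adjusted p = 1.37e-87). In none of these 3 genes did the libraries of the groups overlap. Cpne7, a calcium-dependent membrane-binding copine, rose by 5.51 on the log2 scale, Syt17 of the synaptotagmin family by 5.09, Ceacam10 by 4.41, Islr2, a leucine-rich repeat membrane protein, by 4.25, Tmem235 by 3.78 and the carbonic anhydrase gene Car7 by 3.68. All 9 were higher in 10 of 10 libraries, which the rule for naming them required.

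The given markers showed the same separation, described without a test. Nnat ranged from 3244 to 5299 with a median of 3662 CPM in members and from 147 to 247 with a median of 165 in comparison cells. Necab2 ranged from 289 to 991 CPM against 16.8 to 27.9, and Rxrg from 177 to 444 against 11.1 to 17.8. No library of one group reached the range of the other.

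**Figure D2:**
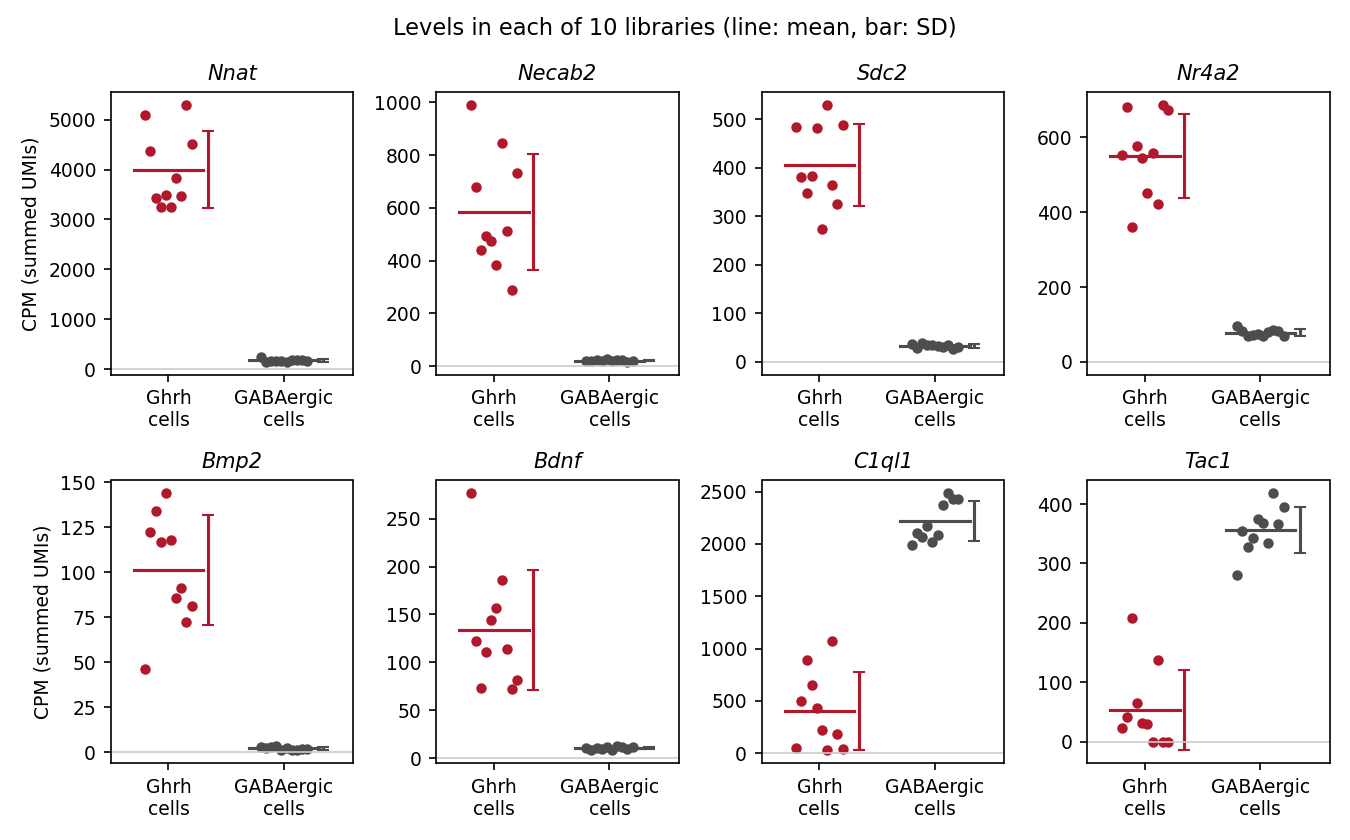
CPM of 8 genes (vertical axes) in each of the 10 libraries, for Ghrh cells and GABAergic comparison cells, with means and SD. For Nnat, Necab2, Sdc2, Nr4a2, Bmp2 and Bdnf every library of Ghrh cells lies above all libraries of comparison cells, and for C1ql1 and Tac1 below them.

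The largest decreases included peptide genes of other amacrine cells. Tac2, which encodes neurokinin B, was found in 3 of 10 libraries of members, at 0 to 61.7 CPM, against 196 to 299 (log2 change -4.55 ± 0.26, adjusted p = 3.71e-48). Tac1, the substance P gene, stood at 0 to 208 with a median of 30.2 CPM against 280.5 to 418 (log2 change -2.47). Vip, a peptide of the family of Ghrh, had a median of 10.9 CPM against 393 (log2 change -2.85). Tac2 was found in 5 members, or 4.81% of members and 9.22% of comparison cells (1.03% and 6.65% with cells thinned). Tac1 was found in 15, or 14.4% of members and 23.9% of comparison cells (8.25% and 16.9% with cells thinned). Vip was found in 11, or 10.6% of members and 8.56% of comparison cells (4.12% and 5.98% with cells thinned), and 4 members held 87.9% of its UMIs in members. Tpbg, a membrane glycoprotein, fell (-5.38), the T-box factor gene Tbx3 (-3.88), Arhgef26 (-3.33), the cell-cycle inhibitor gene Cdkn1c (-3.32) and the non-coding RNA Pantr1 (-2.97). Igfbp2 fell (-2.73), the neurofilament gene Nefh (-2.58), Olfm3 (-2.49) and the phosphodiesterase gene Pde3a (-2.45). From Tpbg to Pde3a, these genes were found in 7.24% (Tpbg) to 28.7% (Pde3a) of comparison cells. In members they were found in 1.92% (Tpbg) to 12.5% (Igfbp2). Comparison cells were not divided by type, so a fall is against their mean, not against each type. The 12 genes of this paragraph were lower in 10 of 10 libraries, which the rule for naming them required.

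**Figure D3:**
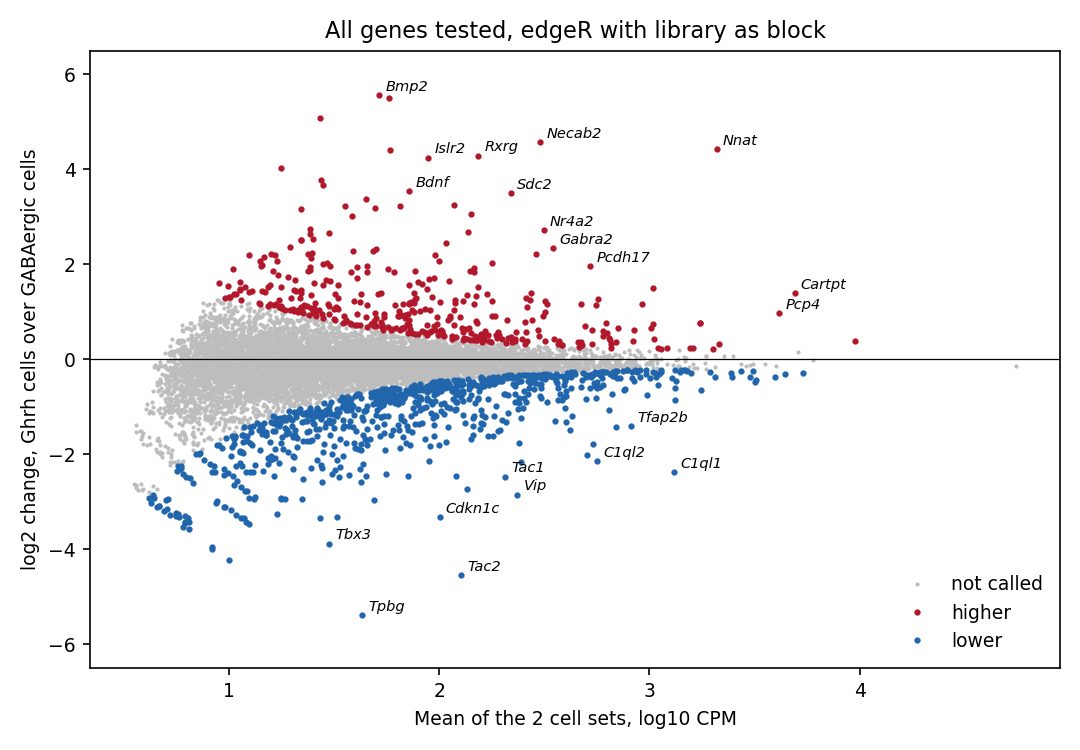
Log2 change of the genes tested between Ghrh cells and GABAergic cells (vertical axis) against level (horizontal axis); the 16 genes with no UMI in members are not drawn. Colours mark the 372 genes called higher and those called lower, and Nnat stands at 4.42.

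The counts by list below stand beside 3.67% higher and 7.97% lower over all genes tested, and no list was tested as a set. Of 14 neuropeptide genes tested 2 were higher (14.3%), 6 were lower (42.9%) and 6 did not pass, with a median log2 change of -0.74. Cartpt, the precursor of the CART peptides, stood at 3617 to 14261 with a median of 5963 CPM in members and 1798 to 3180.5 in comparison cells, was found in 95.2% of members, and rose by 1.40 ± 0.07 (SE, adjusted p = 6.15e-54). Gal, the galanin gene, was also called higher (2.22, adjusted p = 9.94e-08), but it was found in 5 members and was higher in 4 of 10 libraries. Of its 33 UMIs, 32 were in the 4 members of cluster 67 described below, which also held all 464 UMIs of Sst, the somatostatin gene, found in members. Cck, the cholecystokinin gene, fell (-1.92).

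Few genes of Ghrh's own family reached the test. Besides Ghrh, of 18 secretin family ligands and receptors 5 were tested and 4 were lower (80.0% of those tested). These were Vip, Glp2r, Ramp1 and Ramp3, of which the last pair encode partners of such receptors. Glp2r had no UMI in members and, against a floor of 3 counts over all members, was at least 2.71-fold lower. The list's median was -2.21, or -1.44 with that gene at its bound. Ramp1 (-2.21) missed the threshold without library 4 (-1.96), and Ramp3 (-1.13) did so without library 3 (-0.87), 5 (-0.98) or 10 (-1.01). Adcyap1r1, the receptor gene of the related peptide PACAP, was too low to be tested and was chosen after its values were seen. It stood at 0 to 61.3 with a median of 21.6 CPM in members, with UMIs in 7 of 10 libraries, and 2.84 to 5.16 with a median of 3.27 in comparison cells, and was found in 21.2% of members and 1.96% of comparison cells (3.09% and 0.517% with cells thinned).

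Of 25 tested genes of peptide processing and secretory granules 1 was higher (4.0%), 9 were lower (36.0%) and 15 did not pass, with a median of -0.16. Vgf, a granule protein and peptide precursor, was the one that rose, at 265 to 761 CPM against 82.1 to 119 (log2 change 2.21 ± 0.10, adjusted p = 8.09e-64). The secretogranin gene Scg2 fell (-1.78), the prohormone convertase gene Pcsk2 (-1.39) and Syt7 (-1.20). Pcsk1, the other main convertase, had no UMI in members and was at least 3.61-fold lower.

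Of 8 tested genes of hypothalamic GHRH neurons 3 were higher, 2 were lower and 3 did not pass. The higher ones were Gal, the growth hormone receptor gene Ghr (1.25, adjusted p = 0.00898) and the somatostatin receptor gene Sstr2 (0.79, adjusted p = 0.00702). The lower ones were Isl1 (-1.28) and the receptor gene Igf1r (-0.77), which were not among the 98 genes followed across the fits. Ghr missed the threshold without library 2 (1.11). Sstr2 missed it without library 2 (0.67), 4 (0.54) or 10 (0.65), and was -0.64 with cells thinned and -0.21 without deep cells. Of 9 peptide receptors 3 were higher (33.3%), 3 were lower (33.3%) and 3 did not pass. Besides Sstr2, the relaxin-3 receptor gene Rxfp3 rose by 2.19 and the neurokinin receptor gene Tacr3 by 1.86, while Qrfpr and Crhr1 had no UMI in members and were at least 3.21-fold and 2.26-fold lower.

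Of 19 tested GABA and glycine receptor genes 4 were higher (21.1%), 3 were lower (15.8%) and 12 did not pass, with a median of 0.05. Gabra2 stood at 400.1 to 715 with a median of 582 CPM in members and 100.1 to 121 with a median of 108 in comparison cells (log2 change 2.35 ± 0.10, adjusted p = 8.78e-78), and the groups did not overlap. Gabrb1 rose by 1.70 and Gabra4 by 1.37, each in 10 of 10 libraries, although Gabra4 was -1.02 with cells thinned. Gabra2, Gabrb1 and Gabra4 lie on chromosome 5. Gabrd, a subunit of extrasynaptic receptors, fell (-2.27) and the glycine receptor gene Glra2 (-1.19). Of 28 glutamate receptor genes 0 were higher, 7 were lower and 21 did not pass, with the NMDA receptor gene Grin2a (-1.50) and the AMPA receptor gene Gria3 (-1.48) among the lower ones.

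Of 22 tested genes of transmitter synthesis and transport 4 were higher (18.2%), 6 were lower (27.3%) and 12 did not pass. Slc18a2, the vesicular monoamine transporter gene, stood at 52.6 ± 32.8 CPM against 7.37 ± 1.62 (SD, n = 10) and rose by 2.66 ± 0.31 (SE, adjusted p = 1.17e-14). Th, which encodes the enzyme that makes the dopamine precursor, was found in 1 of 10 libraries of members. The GABA transporter gene Slc6a11 rose by 0.90, and Glul, the glutamine synthetase gene, by 0.62 (-0.30 with cells thinned). Slc6a5, a glycine transporter gene, fell (-3.12). Of 46 release genes 8 were higher (17.4%), 12 were lower (26.1%) and 26 did not pass. The synaptotagmin genes Syt6 and Syt5 rose by 1.84 and 1.53 and the complexin gene Cplx3 by 0.77, while Cplx2 fell (-1.30). Rims1, of the release site, fell (-1.33) in all libraries together but was 0.27 in batch 3 alone. The change differed between batches 2 and 3 for 22 of 10884 genes (0.202%), Rims1 and Cartpt among them. Isl1, a marker of both bipolar and ganglion cells, and Cabp5, known from bipolar cells, were also among them. So was Slc18a3, a marker of starburst amacrine cells. Slc18a3 stood at 0 CPM in members and 32.6 in comparison cells of batch 2, and 35.8 and 18.5 in batch 3. All its UMIs in members were in 1 member. Isl1 stood at 7.83 CPM in members and 56.8 in comparison cells of batch 2, and 48.0 and 28.6 in batch 3. Cabp5 stood at 7.90 CPM in members and 13.8 in comparison cells of batch 2, and 51.1 and 8.46 in batch 3. The 12 bipolar markers summed to 103 to 889 CPM in members of batch 2 and 40.8 to 917 in those of batch 3, against 342 to 416 and 272 to 309 in comparison cells. Their medians in batches 2 and 3 were 154 and 307 CPM in members, and 381 and 292 in comparison cells. In batch 3 the members held 42 Rims1 UMIs, of which 2 were in members of cluster 42, a cluster led by bipolar genes that is described below. Over all libraries 4 members held 54.8% of the Rims1 UMIs in members. The cause of the batch difference was not tested.

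Of 60 genes of voltage-gated channels, related channels and their subunits 4 were higher, 18 were lower and 38 did not pass, with a median of -0.36. The potassium channel gene Kcnd3 rose by 1.48 (-0.25 with cells thinned), while Kcnj3, Kcna4 and Kcnab1 fell (-2.65, -2.29 and -2.15).

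Of 80 transcription factor genes 15 were higher (18.8%), 28 were lower (35.0%) and 37 did not pass, with a median of -0.41. Tbx2 stood at 40.8 to 230.4 CPM against 6.70 to 16.2 (log2 change 3.24 ± 0.22, adjusted p = 5.79e-37), whereas its relative Tbx3 was found in 3 of 10 libraries of members. The orphan nuclear receptor gene Nr4a2 stood at 362 to 687 with a median of 556 CPM against 69.0 to 94.6 with a median of 76.5 (log2 change 2.73 ± 0.10, adjusted p = 1.15e-87). Its levels in other clusters are given below. Pou2f2 rose by 1.86. Zeb2 and the LIM factor gene Lhx9 fell (-2.45 and -2.34). Besides Rxrg, of 20 nuclear receptors and their partners 2 were higher, 5 were lower and 13 did not pass. The retinoic acid-binding protein gene Crabp2 rose by 3.18 (49.1 to 170.3 against 7.83 to 13.6 CPM), while Thrb, Esrrg and Rorb fell (-1.98, -1.88 and -0.89).

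Of 10 tested general amacrine genes 1 was higher, 5 were lower and 4 did not pass. The 13 genes of this list, tested or not, summed to 7894 to 12274 CPM in members. In comparison cells they summed to 12533 to 13839 CPM. C1ql1, a secreted synaptic protein, stood at 28.7 to 1074 with a median of 329 CPM in members and 1994 to 2484 with a median of 2140.2 in comparison cells (log2 change -2.38 ± 0.10, adjusted p = 8.98e-71). C1ql2 fell (-2.15), the AP-2 factor gene Tfap2b (-1.41) and Meis2 (-0.72), while the related AP-2 gene Tfap2c rose by 0.88. Of 100 recognition and adhesion genes 21 were higher, 27 were lower and 52 did not pass, with a median of -0.39. The protocadherin gene Pcdh17 rose by 1.96 (550.3 to 1474 against 163 to 236 CPM) and the ephrin receptor genes Ephb1 and Epha3 by 2.21 and 2.02. The cerebellin gene Cbln1 fell (-2.94), and Fstl4 had no UMI in members and was at least 3.96-fold lower.

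Besides Necab2, of 28 genes of calcium-binding and related proteins 3 were higher (10.7%), 8 were lower (28.6%) and 17 did not pass. Pcp4 rose by 0.97 (4081 to 7908 against 2196 to 3371 CPM) and Vsnl1 by 0.75, and Necab1 fell (-1.67). Of 50 G protein and cyclic nucleotide genes 3 were higher, 10 were lower and 37 did not pass, and the G protein subunit gene Gnb4 rose by 2.44. Of 19 immediate early and stress genes 3 were higher (15.8%), 7 were lower (36.8%) and 9 did not pass. Ier3 rose by 1.84, and Fos and Junb fell (-1.20 and -1.14).

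Besides Nnat, 27 imprinted genes were tested, of which 5 were higher (18.5%), 3 were lower (11.1%) and 19 did not pass, with a median of 0.19. Zdbf2 rose by 1.39 and Blcap by 1.16, and Cdkn1c and Rasgrf1 (-1.18) were lower. Zdbf2 missed the threshold in batch 3 alone (0.98) and with cells thinned (0.07), and Rasgrf1 in batch 3 alone (-0.92). The span of Blcap on chromosome 2 (157556362 to 157571274, minus strand) contains that of Nnat, and Blcap was -0.06 with cells thinned. Besides Nnat, 31 annotated genes lay within 500 kb of Ghrh, of which 16 were in the table and 8 were tested. Of these 4 rose, where 3.67% of all tested genes did, and 1 fell, with a median of 0.384. Besides Blcap the kinase gene Src rose by 0.91 (46.9 ± 18.9 against 23.9 ± 3.95 CPM), Samhd1 by 0.88 and Rpn2 by 0.49, while Ndrg3 fell (-0.73).

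Several calls near Ghrh were lost without 1 library or under other alternatives. Src, Samhd1 and Rpn2 kept direction and call in 19, 11 and 16 of 25 alternatives. Each missed the threshold with members from 1 Ghrh UMI, in batch 3 alone and without deep cells. Src (adjusted p = 0.00678 in edgeR's test) missed the threshold without library 2 (0.76), Samhd1 (adjusted p = 0.0291) without library 1 (0.80), 2 (0.50) or 4 (0.87), and Rpn2 (adjusted p = 0.0125) without library 2 (0.42), 4 (0.44) or 5 (0.41). Manbal (0.10), Soga1 (0.28) and Ctnnbl1 (-0.49) did not pass the test.

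**Figure D4:**
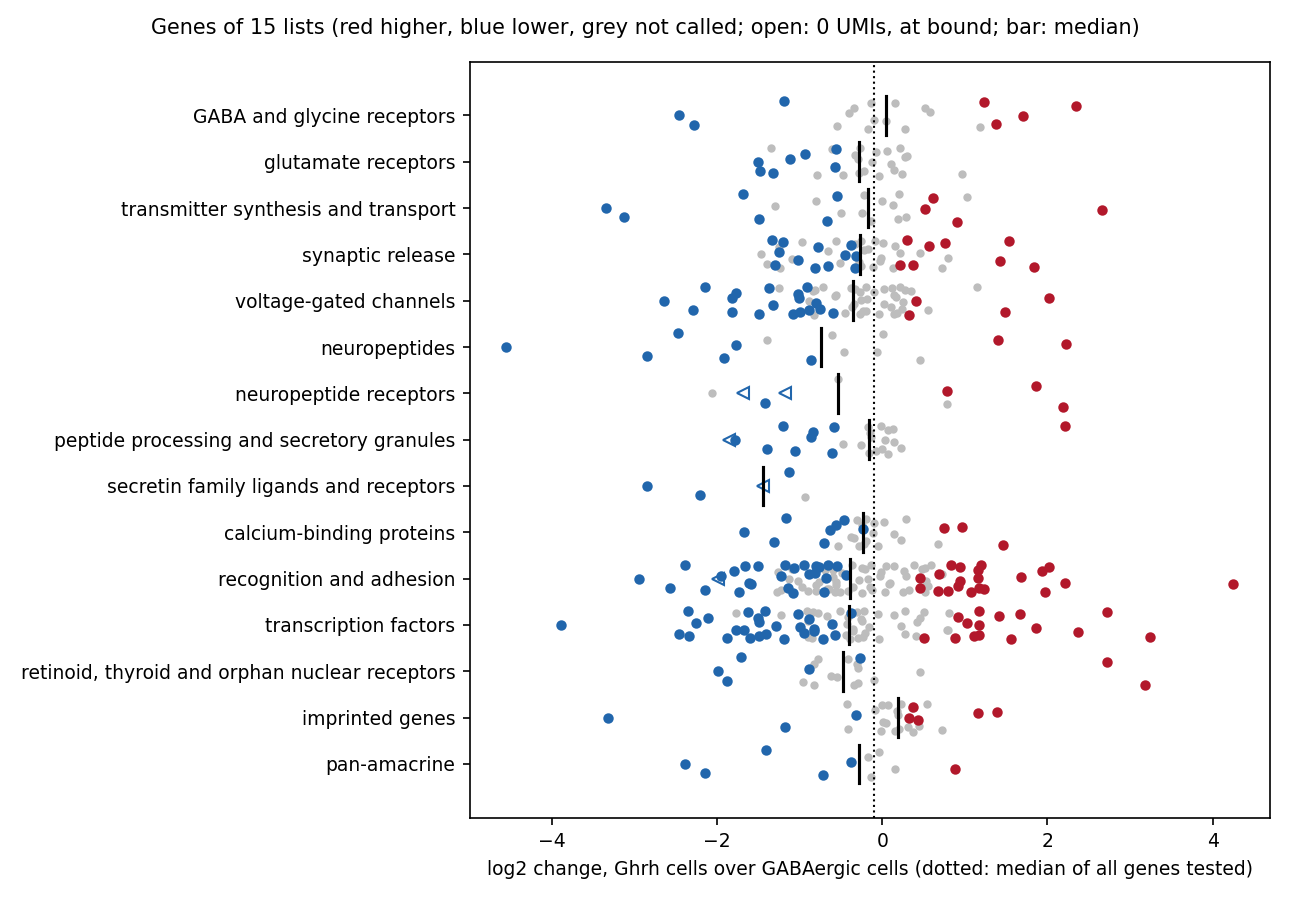
Log2 change (horizontal axis) of the tested genes of 15 lists (vertical axis), coloured by call, with list medians. Open triangles are genes with no UMI in members, placed at the bound from 3 counts. In the transcription factor list 15 genes were higher (18.8%) and 28 lower (35.0%), beside 3.67% and 7.97% of all genes tested.

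Markers of other retinal cells were summed in each library. Rod markers stood at 61.7 to 227 CPM in members and 112 to 186 in comparison cells, and cone markers at 61.1 to 301 and 121 to 192. Ganglion cell markers stood at 163 to 388 against 557 to 647, and Thy1 fell (-1.77). Müller glia markers stood at 766 to 1845 against 1113 to 1446. Bipolar markers had a median of 149 CPM in members and 353 in comparison cells, and ranged from 40.8 to 917 in members. Of the microglia markers 8 of 9 had no UMI in members, and of the endothelial markers 5 of 7. The part of such RNA in the results was not tested.

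The members did not all fall into 1 cluster. When all cells were clustered without Ghrh, its 3 markers, the genes of the comparison rule and genes of technical kinds, 72 of 104 members (69.2%) fell into 1 of 92 clusters, numbered 62, which held 127 cells (0.39% of all cells). At a coarser resolution 77.9% fell into a cluster of 491 cells, and at a finer one 68.3% into one of 126. Of the 20 nearest neighbours of a member, 46.0% on average were members. Cluster 42 held 7 members and was led by Pcp2, Gsg1, Gng13, Slc17a7 and Cabp5, genes known from bipolar cells. Cluster 67 held 4 and was led by Sst, Nnat and Gal, and cluster 73 held 3, with Spp1 and Eno3 among its leading genes. The 32 members outside cluster 62 had a median of 12089.5 UMIs against 7396 inside, 65.6% and 37.5% of them lay above 2 times the library median, and Ghrh stood at 507 and 1805 CPM. Of the 56 members at or below 2 times the median, 45 (80.4%) lay in cluster 62.

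Cluster 62 also held cells without Ghrh. Besides its 72 members, 8 cells had 1 Ghrh UMI and 47 had 0. Those 47 were set apart by their Ghrh count, so only other genes are compared. Nnat stood at 4799 CPM with Ghrh (95% Poisson interval 4620.3 to 4983) and 3772 without (3521 to 4036), Necab2 at 752 and 605, and Rxrg at 389 and 314. The intervals overlapped for Nr4a2 (671 and 708 CPM), Gabra2 (749 and 838), Sdc2 (540.5 and 461), Bmp2 (147 and 188) and Islr2 (219 and 211). These genes were not among those left out of the clustering. Like levels of them inside the cluster may therefore be set by how it was made. All 3 markers were found in 59.6% of the 47 cells and 86.1% of the 72.

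Some genes differed inside the cluster between cells with and without Ghrh. These genes were chosen after their values were seen, so the values are a description without a test. Tfap2c stood at 219 CPM with Ghrh (95% Poisson interval 182 to 261) and 35.8 without (15.5 to 70.6), Cpne7 at 154 and 31.4, Crabp2 at 136 and 22.4, and Prima1, which anchors acetylcholinesterase, at 104 and 4.48. Each was higher with Ghrh in 8 of the 8 libraries compared. The GABA-making enzymes went apart: Gad2 stood at 253 CPM with Ghrh and 85.1 without, higher in 8 of 8 libraries, and Gad1 at 1134 and 1675, lower in 8 of 8. Vgf (643 and 1107 CPM) was lower with Ghrh in 6 of 8 libraries and Scg2 (97.1 and 259.8) in 7 of 8. The cells with Ghrh were deeper, with a median of 7396 UMIs against 4072. Intervals cover counting error only.

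**Figure D5:**
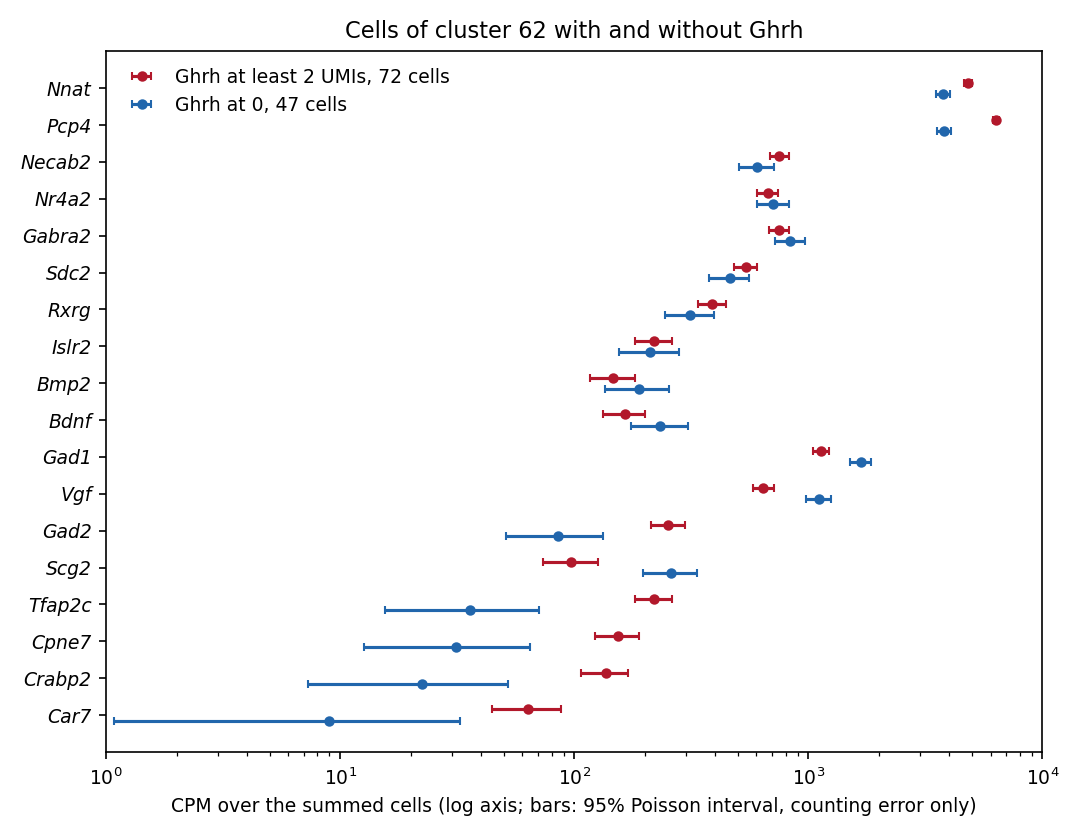
CPM over the summed cells of cluster 62 (horizontal axis, log scale) for 18 genes (vertical axis), in the 72 cells with at least 2 Ghrh UMIs and the 47 with none, with 95% Poisson intervals. Intervals overlap for Nr4a2, Gabra2 and Islr2 and lie apart for Gad2, Tfap2c, Cpne7 and Crabp2.

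Across 10504 genes, which are not independent, the clusters nearest to cluster 62 were cluster 47 (Pearson r = 0.43, led by Etv1, Cpm and Eno3), cluster 73 (0.29) and cluster 67 (0.23). The markers were shared with other clusters to unequal degrees. Nnat stood at 4755 ± 933 CPM in cluster 62 and 4522 ± 1349 in cluster 45 (SD over 10 libraries), within the spread of each. Necab2 stood at 728 ± 231 CPM in cluster 62 and 276 ± 101 in cluster 38, and Rxrg at 392 ± 101 in cluster 62 and 233 ± 82.9 in cluster 33. Over summed cells, Nr4a2 stood at 676 CPM in cluster 62, 891 in cluster 73 and 484 in cluster 67, and Eno3 at 271 in cluster 62 and 503 in cluster 73. Gabra2 and Glul were among the leading genes of cluster 73, Gnb4 of cluster 67, and Gabrb1 and Tbx2 of cluster 50, the next nearest. Sdc2, Islr2, Bmp2 and Vgf were among those of cluster 62 but not of clusters 67 or 73. Their levels in cluster 47, the nearest, and in cluster 50 were not compared. A gene outside the leading genes of a cluster can still be high there.

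Ghrh cells were also compared with 546 GABAergic cells that held at least 10 UMIs of Vip, from all 10 libraries. Of 2971 genes tested with edgeR, 326 were higher in the Ghrh cells (11.0%) and 323 lower (10.9%). As a description, the marker Rxrg stood at 292 ± 96.8 CPM in Ghrh cells and 3.27 ± 2.66 in Vip cells, Necab2 at 585 ± 221 and 23.5 ± 15.4, and Nnat at 3998 ± 769 and 341 ± 295 (SD, n = 10). Cpne7 rose by 4.89, the enolase gene Eno3 by 4.05 (213 ± 72.2 against 13.2 ± 6.48 CPM) and Pcdh17 by 3.62 (842 ± 295 against 61.3 ± 36.7). Cbln4, a cerebellin gene, stood at 44.6 ± 34.1 CPM in Ghrh cells and 1323 ± 190.2 in Vip cells (log2 change -4.83, adjusted p = 8.47e-20 in edgeR's test). The log2 changes of Plscr1, Ccdc109b, Nfia, Cngb3 and Chst2 were -5.73, -4.62, -4.46, -3.46 and -3.45. Each of these 9 changes had 1 direction in 10 of 10 libraries, which the rule for naming the genes required. Cells with at least 5 UMIs of Crh, the gene of another hypothalamic releasing hormone, could be compared in 2 libraries, with 21 Ghrh and 12 Crh cells. There 30 of 1000 genes were higher in Ghrh cells (3.0%) and 26 lower (2.6%), and no gene is named from so few cells.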

How the data were processed

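The authors deposited counts, whole numbers of UMIs per gene and cell, for 10 libraries of 6302659 to 26028492 UMIs. Cell Ranger 2.1.0 and mm10 are named per the submitters' processing notes; the sources used here do not give the annotation or the cell filters. Members and gene lists were chosen with earlier results of these data known. Counts were summed per library and cell set with at least 5 cells and tested with edgeR 4.0.16 (R 4.3.3, quasi-likelihood test, TMM scaling, filter on low counts), adjusted over all genes tested by the Benjamini-Hochberg method at a threshold of 0.05. Library was a block because both cell sets come from the same library. Genes that defined a cell set were not counted. CPM are means over libraries unless said to be of summed cells. Named genes were the given markers, the 12 largest changes in each direction with 1 direction in every library and at least 50 CPM, up to 4 called genes per list and direction, genes within 500 kb of Ghrh, and up to 6 per direction against Vip cells. Some genes that this rule names are not reported here. Clusters came from Leiden (leidenalg 0.10.2, 2000 variable genes, 40 components, 20 neighbours, resolution 3), without ribosomal, mitochondrial, haemoglobin, sex-linked, rod and immediate early genes, and are numbered, not named. On simulated counts for the GABAergic comparison (9895 genes), 95% of 2-fold and 100% of 4-fold changes were recovered, and 4.88% of calls were false. Changes were set only in 200 genes with a mean of at least 50 CPM in members. The simulated spread followed the level of a gene alone. The rates therefore do not cover lower genes or genes with more spread. GENCODE M21 had a record for 26646 of 27933 symbols. Alternatives were other UMI thresholds, comparison cells, scalings, filters and depths, single batches, DESeq2 1.42.0, no block, and each library left out. Leaving out cells with shared barcodes, and deep cells in the cluster count, were chosen after seeing the data.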

Additional observations from a re-analysis of the deposited data

Results flagged for a closer look

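Of 29 sets of 10 libraries checked, 5 had 1 library of members far from the other 9, a rule that flags about 1 of 20 sets by chance where values are normally distributed. That rate was not checked for sparse genes such as Tac2, Cdkn1c and Olfm3, each found in 5 members. Cpne7 stood at 224 CPM in library 10, next to 144 in the nearest other library. Tac2 stood at 61.7 CPM in library 5, next to 22.9, and Cdkn1c at 103 CPM in library 8, next to 40.2. Vip stood at 315 CPM in library 3, next to 61.1, and Olfm3 at 46.9 CPM in library 3, next to 18.1.

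The change against GABAergic cells differed between batches 2 and 3 for 22 of 10884 genes (0.202%) by edgeR's test of the interaction. Of the 98 named genes, 6 were among them. The log2 change of Rims1 was 2.57 higher in batch 3 (adjusted p = 3.03e-08), with 41.2 CPM in members and 214 in comparison cells of batch 2, and 155 and 111 in batch 3. That of Cartpt differed by -0.83 (batch 3 minus batch 2, adjusted p = 1.23e-07), with 7942 CPM in members and 2275 in comparison cells of batch 2, and 5699 and 2768 in batch 3. C1ql1 differed by -0.97 (adjusted p = 0.000562), C1ql2 by -1.15 (adjusted p = 0.00695) and Tfap2b by -0.83 (adjusted p = 0.00862), all lower in members in both batches. Scg2 differed by 0.87 (adjusted p = 0.0295), with 179 CPM in members and 771 in comparison cells of batch 2, and 413 and 865 in batch 3. Isl1 and Cabp5, described above, differed by 3.31 and 3.30 (batch 3 minus batch 2). Slc18a3 differed by 11.2, a value that depends on the prior count, as members of batch 2 had 0 CPM. Whether RNA of bipolar or other cells had a part in any of these differences was not tested.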

How the results depend on the processing

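Against GABAergic cells, 140 genes were higher in batch 3 alone, 34 with cells thinned to 2000 UMIs and 134 without cells above 2 times the median UMIs, in place of 372. In place of 808, 387 were lower with members taken from 1 Ghrh UMI, 432 with DESeq2, 526 in batch 2, 362 in batch 3 and 331 with cells thinned. With each library left out, 301 to 356 were higher and 736 to 899 lower, and against Vip cells 272 to 319 and 279 to 326. Without the replicate block 340 were higher and 719 lower, against Vip cells 296 and 296, and against Crh cells 16 and 13. Calls that were higher made up 45.9% from 1 Ghrh UMI. With no filter on low counts 817 genes were lower than in Vip cells, and with Crh cells taken from 2 UMIs 90 were higher and 95 lower. The Crh comparison could not be fitted with a library left out. The share of Ghrh cells was 1.002% from 1 UMI, 0.224% from 5 UMIs, 0.227% with cells thinned and 0.223% without deep cells, and 80.4% of members were in 1 cluster without deep cells. Of 98 named genes 95 were called, 42 of them with the same direction and call under every alternative that gave a value, 50 lost the call in at least 1, and 8 changed direction in at least 1. All alternatives gave a value for 85 of the 98. With cells thinned the log2 change was -0.64 for Sstr2, -0.30 for Glul, -1.02 for Gabra4, -0.25 for Kcnd3, -0.0644 for Blcap, -7.91 for Samhd1, -0.12 for Rpn2 and -0.25 for Manbal; without deep cells -0.21 for Sstr2 and -0.27 for Manbal; from 1 Ghrh UMI 0.46 for Rims1 and -0.0731 for Manbal; in batch 3 0.27 for Rims1, -0.10 for Manbal and -7.28 for Soga1. With each library left out Manbal ranged from -0.0065 to 0.16. The values for Samhd1 and Soga1 are of genes with no UMI in those members and depend on the prior count. Both alternatives on depth also had fewer members and libraries; beyond that the cause was not tested.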
